A study of Homo sapiens with 2 samples.

Results

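10 genes of the amino acid stress response that runs through the transcription factor ATF4 were described: ATF4, DDIT3, TRIB3, ASNS, PHGDH, PSAT1, CHAC1, SESN2, DDIT4 and VLDLR. They were taken by symbol, as the transcript clusters (sets of array probes for 1 locus) annotated to 1 of these symbols and to no other gene. All 10 were measured, each by 1 transcript cluster, out of 22411 genes on the array, and none of the transcript clusters annotated to several genes named any of them. Amino acid transporters and tRNA synthetases were not among the 10.

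The study overexpressed FOXK2, a forkhead transcription factor, in 769-P cells, an established line grown from a human kidney tumour of the clear-cell type, labelled non-metastatic. 1 array held RNA of cells given the lentiviral vector pLV-EGFP with the FOXK2 coding sequence, and 1 array held RNA of cells given the empty pLV-EGFP vector. Both groups therefore carried a lentiviral insert and EGFP, and no array of cells without vector was used here. The vector's full name in the labels includes Puro, and neither the time after transfer of the vector nor the number of clones is given in the sources used here.

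ATF4 is a basic leucine zipper factor whose mRNA is translated more when the initiation factor eIF2 is phosphorylated, so that much of its control is not visible in its own RNA level. The kinases that phosphorylate eIF2 respond to amino acid shortage, misfolded protein in the endoplasmic reticulum, haem shortage or double-stranded RNA. ATF4 then binds C/EBP-ATF response elements and raises the transcription of genes for amino acid synthesis, transport and tRNA charging, of genes that restrain mTORC1, and, under lasting stress, of the pro-apoptotic factor CHOP, which DDIT3 encodes. Clear-cell renal carcinoma is known for an altered use of amino acids and glutathione.

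The C/EBP-ATF response element, TGATGNAAN on either strand, was searched in RefSeq promoter windows (GRCh38.p14) of 250 bases before to 50 bases after each gene's start. All 10 genes had a window, and 2 of them, ASNS and CHAC1, held the element. Among all 27305 genes with a window, 4.45% held it. The 250 bases before the start are shown for these 2 genes, with the element in capitals, and for PSAT1, the gene with the largest difference in size, which had no match in its window. The ASNS stretch is chr7:97872409-97872658 on the minus strand, the CHAC1 stretch chr15:40953221-40953470 on the plus strand and the PSAT1 stretch chr9:78296875-78297124 on the plus strand, each written 5′ to 3′ along the gene.
ASNS: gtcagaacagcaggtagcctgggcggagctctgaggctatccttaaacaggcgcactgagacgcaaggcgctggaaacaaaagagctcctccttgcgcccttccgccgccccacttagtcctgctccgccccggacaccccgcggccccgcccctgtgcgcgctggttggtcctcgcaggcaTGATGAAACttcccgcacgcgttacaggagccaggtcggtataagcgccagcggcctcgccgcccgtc
CHAC1: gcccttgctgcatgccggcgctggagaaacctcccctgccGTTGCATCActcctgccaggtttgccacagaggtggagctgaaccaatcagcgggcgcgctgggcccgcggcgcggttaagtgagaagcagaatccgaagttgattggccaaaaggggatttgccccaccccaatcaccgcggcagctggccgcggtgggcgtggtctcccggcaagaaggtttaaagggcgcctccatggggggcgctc
PSAT1: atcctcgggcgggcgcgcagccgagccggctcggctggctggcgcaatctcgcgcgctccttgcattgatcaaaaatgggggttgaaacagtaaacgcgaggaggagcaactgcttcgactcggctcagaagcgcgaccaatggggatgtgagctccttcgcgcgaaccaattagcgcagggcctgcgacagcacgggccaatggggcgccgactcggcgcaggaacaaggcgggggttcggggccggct
ASNS has 2 annotated starts, and the element lay in the window of the one shown. It began 68 bases before that start and lay on the gene's own strand, and in CHAC1 it began 210 bases before the start, with its letters on the opposite strand. The forkhead element GTAAACA, a sequence that forkhead factors are known to bind, occurred in the windows of 4.19% of all genes and of 0 of the 10. The cyclic AMP response element TGACGTCA and the endoplasmic reticulum stress element, each searched on both strands and found in 2.25% and 0.0916% of all genes, also matched 0 of the 10. No match says only that these letters were not in this window.

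The values below are the authors' log2 values, and a difference is FOXK2 array minus empty vector array. With 1 array per group no difference has an error or a test, and the number of arrays limits the precision. FOXK2 itself rested on 1 array each too, at 13.82 in cells given its coding sequence against 9.36 in the control, the direction of the labels. A level limit was set at 5.24, the median over all transcript clusters with 1 gene symbol, and 11263 genes had a mean over both arrays at or above it. The middle 95% of these genes differed by between -1.09 and 0.93, with a median of -0.050. In 145 protein-coding genes with several transcript clusters above the limit, the differences within a gene disagreed by a median of 0.090, with an upper quartile of 0.25. This is a measure of probe disagreement within these 2 arrays and not of the spread between cultures.

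Of the tubule and clear-cell carcinoma markers, all 8 measured lay above the level limit, with values between 8.05 and 16.20, and 2 of the 8 were called 2-fold higher with FOXK2. These were CUBN, the endocytic receptor cubilin, at 9.41 with empty vector and 12.84 with FOXK2, and LRP2, its partner megalin, at 13.15 and 16.20. The other 6 had differences between -0.37 (VIM) and 0.90 (ANPEP), with PAX8, a kidney lineage factor, at -0.16. The 4 endothelial markers lay between 3.14 and 4.22 and the 3 fibroblast markers between 3.68 and 4.45, all below the limit. Of the 4 leukocyte markers, 3 were below it, and CD68, a lysosomal protein not limited to leukocytes, was above.

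None of the 10 genes differed 2-fold. Over all genes above the level limit, 2.13% were higher by at least 2-fold in the FOXK2 array and 3.05% were lower by as much. 8 of the 10 lay above the limit, the exceptions being CHAC1 and PHGDH. 7 of the 10 differences, those of CHAC1 and PHGDH among them, were below 0, against 55.6% of all genes above the limit. Here and below, shares and medians given for all genes are over the genes above the level limit. The median of the 10 was -0.088, against -0.050 for all genes. At a limit of 1.5-fold, PSAT1 and VLDLR were lower and DDIT4 was higher among the 8, while 10.6% of all genes were lower and 6.09% higher at that limit. As a group the 10 lay close to the middle of the array, with PSAT1, VLDLR and PHGDH towards its lower side and DDIT4 and DDIT3 towards its upper side.

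**Figure D1:**
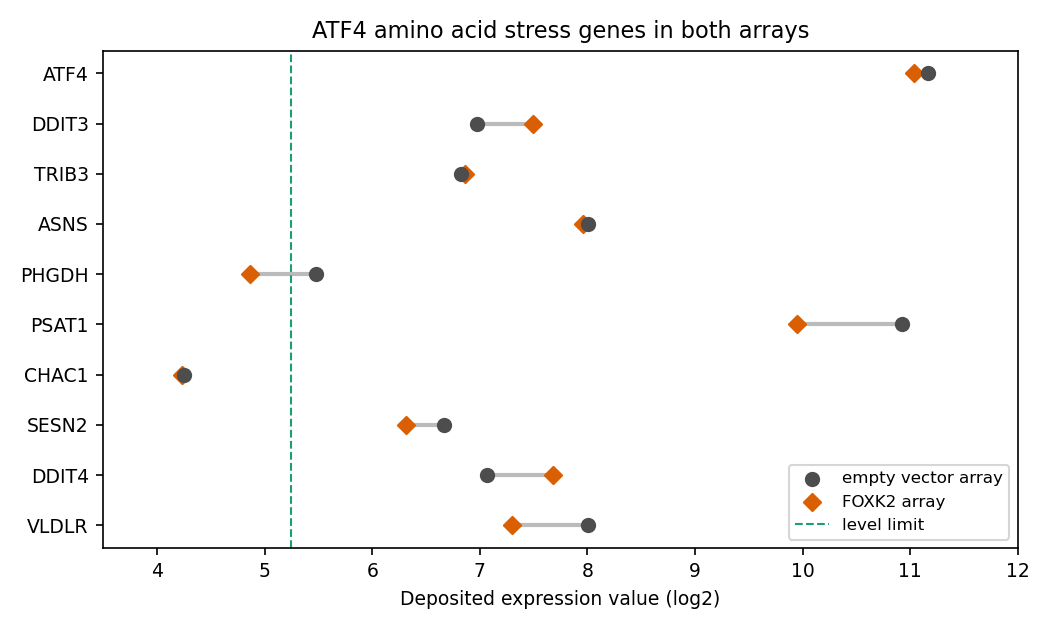
Deposited log2 value (x axis) of each of the 10 genes (y axis) in the empty vector array (circles) and the FOXK2 array (diamonds), 1 array each, with the level limit of 5.24 as a dashed line. PSAT1 shows the widest gap, 10.92 against 9.95, and the symbols of ASNS, TRIB3 and CHAC1 nearly coincide; levels of different genes are not comparable, since they rest on different probes.

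The transcription factor at the head of the pathway was nearly level. ATF4 had a value of 11.17 with empty vector and 11.04 with FOXK2, a difference of -0.13, and 70.1% of all genes differed by at least as much. DDIT3, which encodes CHOP, a partner of C/EBP factors that promotes cell death under lasting stress, had a value of 6.97 with empty vector and 7.49 with FOXK2. Its difference of 0.52 was 1.43-fold, and 7.22% of all genes stood higher. TRIB3, a pseudokinase that ATF4 and CHOP induce and that in turn restrains ATF4, had a value of 6.82 with empty vector and 6.86 with FOXK2, a difference of 0.036. ATF4 and TRIB3 thus differed by less than the upper quartile of the disagreement between transcript clusters of a gene, and DDIT3 by more.

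Among the enzymes of amino acid synthesis, ASNS and the serine enzymes did not move alike. ASNS, asparagine synthetase, whose promoter holds the element shown above, had a value of 8.01 with empty vector and 7.96 with FOXK2, a difference of -0.045. PSAT1, phosphoserine aminotransferase, the middle enzyme of serine synthesis, had a value of 10.92 with empty vector and 9.95 with FOXK2. This difference of -0.97, or 1.96-fold lower, was the largest of the 10 in size, and 3.29% of all genes stood lower. It lay just short of 2-fold and passed it, at -1.04, only when both arrays were centred on their medians. That centring also moved the median of all genes above the level limit from -0.050 to -0.12. Loess removal, quantile normalization and subtraction of the median of neighbouring genes gave PSAT1 differences of -0.92, -0.91 and -0.65. PHGDH, phosphoglycerate dehydrogenase, which starts serine synthesis, had a value of 5.47 with empty vector and 4.86 with FOXK2, a difference of -0.61. The FOXK2 value and the mean of both lay below the level limit, so the size of this difference is uncertain.

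The last enzyme of that route, phosphoserine phosphatase, is encoded by PSPH, which had a value of 9.66 with empty vector and 8.98 with FOXK2, a difference of -0.68. None of these differences of PHGDH, PSAT1 and PSPH was called as deposited, and 55.6% of all genes had differences below 0. Downstream, GLDC, the decarboxylase of the mitochondrial glycine cleavage system, stood at 10.07 with empty vector and 7.80 with FOXK2, a difference of -2.27. SHMT1, the cytosolic serine hydroxymethyltransferase, had a difference of 0.98 in the other direction, from 9.01 to 9.99, and SHMT2, its mitochondrial form, one of 0.045. The serine, glycine and one-carbon list holds PSPH but not PHGDH or PSAT1. Of its 13 measured genes, GLDC was the only one called 2-fold lower and 0 were called higher. Over all genes above the level limit, 3.05% were called lower and 2.13% higher. SHMT1 passed 2-fold after loess removal (1.03) and quantile normalization (1.05). The median of the 13 was 0, set by AMT, which had the same value in both arrays, and -0.35 over the 9 above the level limit.

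CHAC1, a cyclotransferase that breaks down glutathione and is a sensitive target of ATF4 in other cells, had a value of 4.25 with empty vector and 4.23 with FOXK2, a difference of -0.017. Both values lay below the level limit, and whether they stood above background is not known. CHAC2, its relative, had a value of 5.62 with empty vector and 4.92 with FOXK2, a difference of -0.70. The FOXK2 value of CHAC2 lay below the level limit and its mean of 5.27 just above, so the size of this difference is uncertain. In the glutathione list, 0 of 10 measured genes, 7 of them above the level limit, were called 2-fold in either direction. Among all genes above that limit, 3.05% were called lower and 2.13% higher. GCLM, the regulatory subunit of the first synthesis step, had a difference of -0.88, and ANPEP, a surface aminopeptidase that can cleave the dipeptide left by glutathione breakdown, one of 0.90, which became 1.18 with the median of its neighbours subtracted.

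The 2 restraints of mTORC1 differed in direction. SESN2, a leucine sensor that restrains mTORC1 through the GATOR complexes, had a value of 6.67 with empty vector and 6.32 with FOXK2, a difference of -0.36. DDIT4, which acts through the TSC complex and is also induced by low oxygen and glucocorticoids, had a value of 7.07 with empty vector and 7.68 with FOXK2. Its difference of 0.61, or 1.52-fold higher, was the highest of the 10, and 5.67% of all genes stood higher. Of the other sestrins, SESN1 had a difference of -0.39, while SESN3, with a difference of -0.14, and DDIT4L, the relative of DDIT4, with one of -0.093, lay below the level limit in both arrays. Among the 24 measured mTORC1 regulators, 21 of them above the level limit, 0 were called 2-fold in either direction, and their median was -0.13. The shares called among all genes above the limit were 3.05% lower and 2.13% higher. RRAGC, a Rag GTPase that recruits mTORC1 to the lysosome, had a difference of 0.84 and SLC38A9, the lysosomal arginine sensor, one of -0.77.

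VLDLR, the receptor for very-low-density lipoprotein, which ATF4 is known to raise in liver cells under endoplasmic reticulum stress, had a value of 8.002 with empty vector and 7.303 with FOXK2. The difference of -0.70 was 1.62-fold lower, and 7.36% of all genes stood lower. LRP8, its nearest relative and a fellow receptor for reelin, had a difference of -0.45. Of the 15 measured genes of the lipoprotein receptor list, 11 lay above the level limit. LRP2, the endocytic receptor megalin of the proximal tubule, was the only gene of the list called 2-fold, at 16.20 against 13.15. The shares called among all genes above the limit were 2.13% higher and 3.05% lower. The list median was 0.067. LRP12 had the lowest difference, -0.82.

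**Figure D2:**
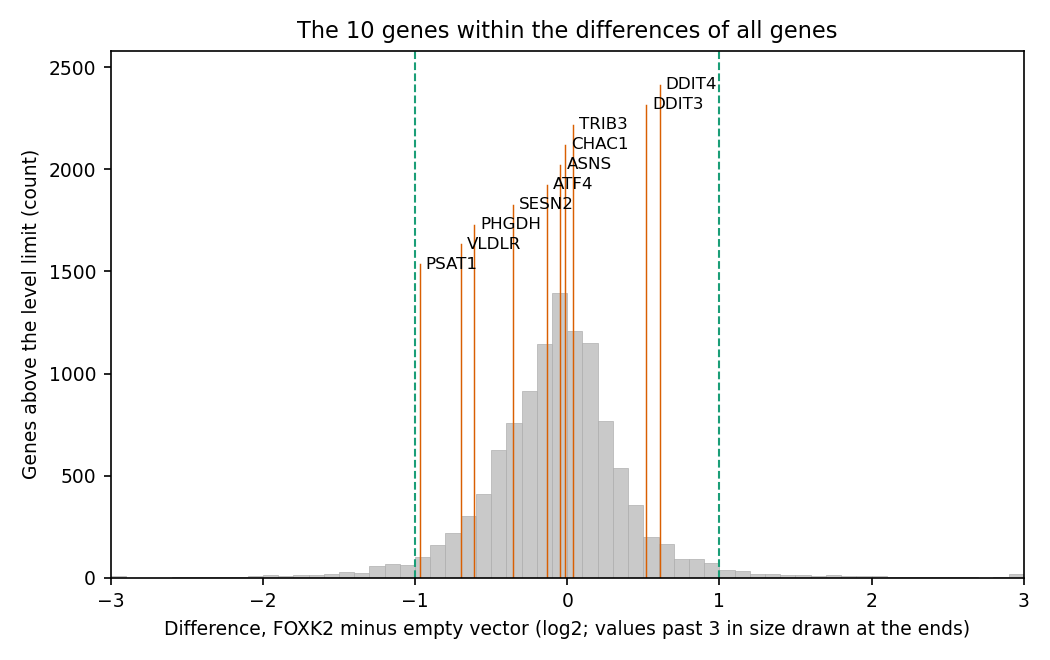
Number of genes above the level limit (y axis) by their difference, FOXK2 minus empty vector, on the log2 scale (x axis, bins of 0.1), with a line at the difference of each of the 10 genes and dashed lines at the 2-fold limits. All 10 lines fall between the dashed lines, from -0.97 for PSAT1 to 0.61 for DDIT4.

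Genes of some chromosomes were lower as a group, and 4 of the 10 lie on such chromosomes. The median difference was -0.26 over 481 genes above the limit on chromosome 9, which carries PSAT1 and VLDLR, -0.24 over 439 on chromosome 10, which carries DDIT4, and -0.30 over 397 on chromosome 15, which carries CHAC1. On chromosomes 1, 7, 12, 20 and 22, which carry the other 6, the medians lay between -0.046 and 0.024. The median of the 51 genes nearest in order was -0.32 around PSAT1, and PSAT1 stood at -0.65 once this was subtracted. VLDLR, whose neighbours had a median of -0.19, stood at -0.50. The neighbours of DDIT4 had a median of -0.26, and DDIT4 stood at 0.87. Around TRIB3 the median was -0.33, although chromosome 20 as a whole was near 0, and TRIB3 stood at 0.36. CHAC1 also stood at 0.36, with neighbours at -0.38. CHAC1 itself lay below the level limit with a deposited difference of -0.017, while its neighbours were taken from genes above that limit. The 0.36 of CHAC1 thus came from the subtraction. PHGDH stood at -0.64 and DDIT3 at 0.51, which were nearly their deposited differences. Whether copy number or another property of these regions takes part in the differences was not tested.

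**Figure D3:**
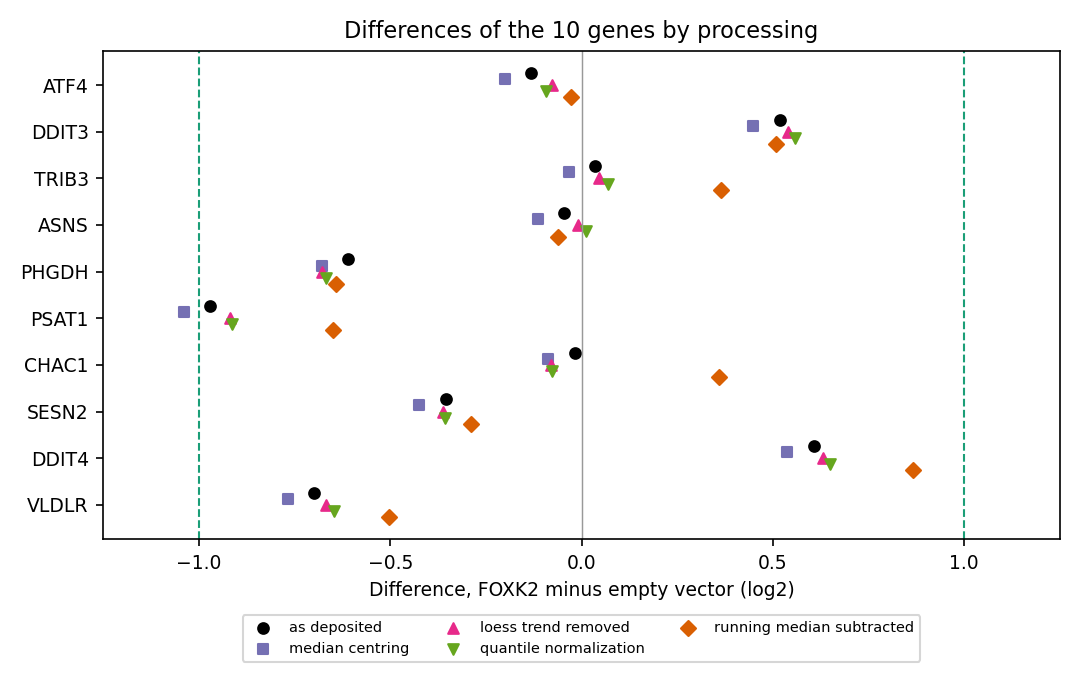
Difference of each of the 10 genes (y axis), FOXK2 minus empty vector on the log2 scale (x axis), as deposited and under 4 other ways of processing, with dashed lines at the 2-fold limits. PSAT1 passes -1 only after median centring, and DDIT4 moves from 0.61 to 0.87 and TRIB3 from 0.036 to 0.36 when the median of neighbouring genes is subtracted.

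Upstream of ATF4, the 18 measured genes of the eIF2 kinases and eIF2 control, all above the level limit, had a median of -0.28. Of the 18 differences, 15 were below 0, against 55.6% over all genes above the limit. At 2-fold, 1 gene was called lower and 0 higher, beside 3.05% lower and 2.13% higher among all genes above the limit. That gene was EIF2AK4, the kinase GCN2, which senses uncharged tRNA in amino acid shortage, with a value of 8.98 with empty vector and 7.97 with FOXK2. Its difference of -1.01 lay at the limit, and EIF2AK4 is on chromosome 15; with the median of its neighbours subtracted it stood at -0.70. IMPACT, an inhibitor of GCN2, had a difference of -0.98. This passed 2-fold after median centring (-1.05) and became -0.56 with the median of its neighbours subtracted. GCN1, the ribosome-bound activator of GCN2, had a difference of -0.59. The other kinases differed in direction, with EIF2AK2, the double-stranded RNA sensor PKR, at -0.52, EIF2AK3, the endoplasmic reticulum sensor PERK, at 0.46, and EIF2AK1, the haem-regulated kinase, at the same value of 12.03 in both arrays. Phosphorylation of eIF2 is not measured by an RNA array.

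Of 29 other measured target genes of ATF4, 22 lay above the level limit, and 2 of these were called 2-fold lower and 1 higher. Over all genes above the limit, 3.05% were called lower and 2.13% higher. GDF15, a stress-induced cytokine, had a difference of -2.32, from 11.07 with empty vector to 8.75 with FOXK2. SLC7A11, the cystine transporter that feeds glutathione synthesis, had a difference of -2.15, from 7.99 to 5.83. VEGFA, an angiogenic factor that low oxygen also induces, had a difference of 1.23, from 7.34 to 8.57. The median of the list was -0.15 over all 29 and -0.40 over the 22 above the level limit. Among amino acid transporters in the list, SLC7A1, a carrier of arginine and lysine, stood at -0.86, whereas SLC38A2, a carrier of small neutral amino acids, stood at 0.93 and SLC7A5, a carrier of large neutral ones, at 0.42. These 3 transporters were chosen after their values were seen. Of the transporters in the list not named so far, SLC3A2 stood at -0.41 and SLC1A5 at 0.10. SLC6A9 (0.032) and SLC1A4 (-0.018) lay below the level limit.

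Of the 29 measured target genes, 22 had a promoter window, and 7 of these (31.8%) held the element TGATGNAAN, against 4.45% of all genes with a window. The 7 were FGF21, ATF3, CEBPG, SLC3A2, SLC7A1, SLC1A4 and SLC1A5. Their differences ranged from -0.86 to 0.24 with a median of -0.15, and the median of the 15 measured genes whose window had no match was -0.070. ASNS and CHAC1, the 2 of the 10 with the element, had differences of -0.045 and -0.017. Of these 9 genes with the element in this window, FGF21 (0.24) and SLC1A5 (0.10) had differences above 0. Among the others, ASNS, CHAC1 and SLC1A4 (-0.018) lay near 0. Over all genes above the level limit, 55.6% had differences below 0. FGF21, SLC1A4 and CHAC1 lay below the level limit. None of the 9 differed 2-fold, beside 3.05% lower and 2.13% higher among all genes above the limit.

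For the 3 lists that follow, the shares to compare are the 3.05% of all genes above the limit called lower and the 2.13% called higher. Of 18 measured partners and antagonists of ATF4 and CHOP, 13 lay above the level limit, and 1 of these was called 2-fold lower and 0 higher. It was TRIB1, a relative of TRIB3 that directs C/EBP alpha to degradation. TRIB1 had a value of 10.28 with empty vector and 8.09 with FOXK2, a difference of -2.19. TRIB2, the remaining tribbles gene, lay below the level limit at 4.11 and 4.21. BATF3, a leucine zipper factor, had a difference of 0.80. Of 16 other amide and amino acid synthesis enzymes, 11 lay above the level limit. OAT, ornithine aminotransferase, was called 2-fold higher with a difference of 1.02, and 0 were called lower. ASS1, argininosuccinate synthase, had a difference of -0.78. In the arms of the unfolded protein response outside ATF4, 0 of 21 genes, 19 of them above the level limit, were called in either direction. Differences were above 0 in 14 of the 21, against 43.3% over all genes above the limit, and the median was 0.089. DNAJC3, an inhibitor of eIF2 kinases that this response induces, had a difference of 0.88 and XBP1, its spliced transcription factor, one of 0.70.

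**Figure D4:**
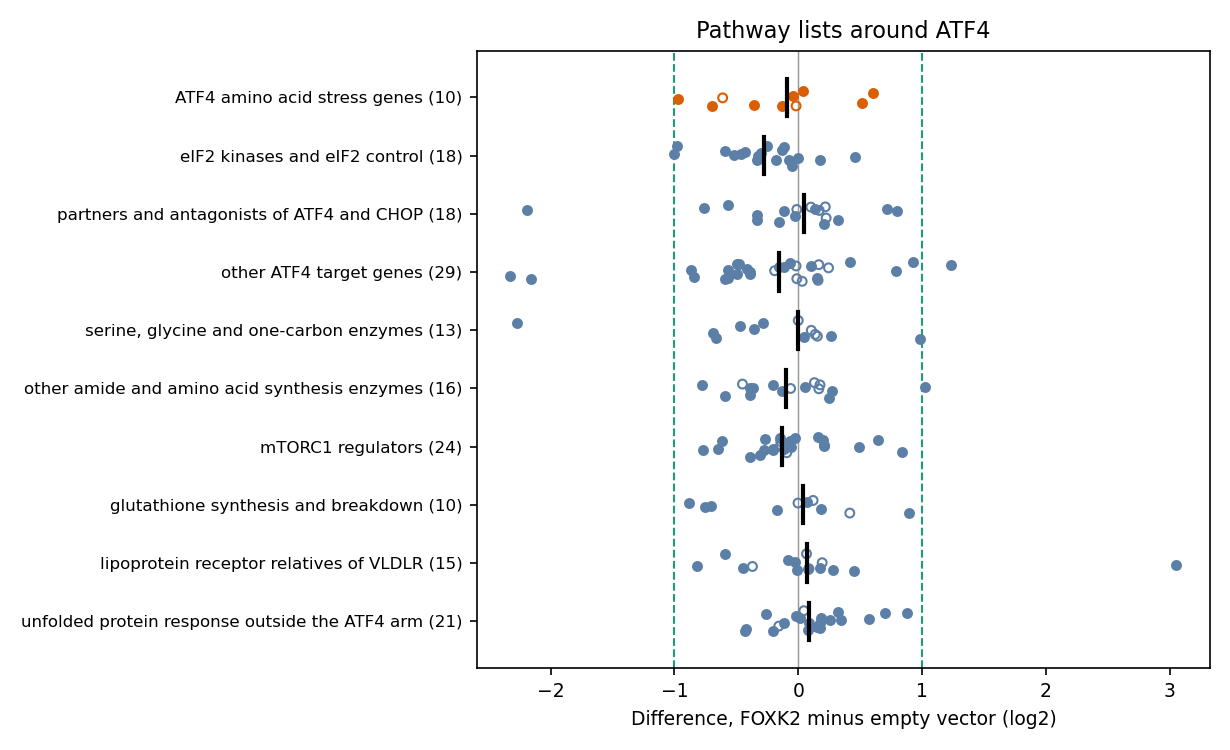
Difference of each measured gene, FOXK2 minus empty vector on the log2 scale (x axis), in the 10 genes and 9 related lists (y axis, number of genes measured in brackets), with filled circles for genes above the level limit, open circles for those below, black bars for list medians and dashed lines at the 2-fold limits. The medians lie between -0.28 and 0.089, and the genes furthest from 0 are LRP2 at 3.05 and, on the low side, GDF15, GLDC, TRIB1 and SLC7A11 between -2.32 and -2.15.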

How the data were processed

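Per the submitters' processing notes, the authors processed the Affymetrix whole-transcript arrays with Affymetrix Expression Console. Neither algorithm nor genome build is given in the sources used here. Their deposited table holds 1 log2 value per array for 67528 transcript clusters, between 2.13 and 19.93 in both arrays; the log2 scale was read from this range. Per the labels' protocols, total RNA was amplified and labelled with biotin. Probe intensities were not used here, so background levels are unknown.

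A single gene symbol was given for 23781 transcript clusters in the platform's annotation, updated through the RefSeq gene table of GRCh38.p14, and clusters of a gene were averaged. That table also gave gene order. Differences were taken without further normalization. A gene was called at 2-fold (a difference of at least 1 in size) with its mean at or above the level limit. No measured gene of the lists below that limit differed 2-fold. Of all genes above it, 2.13% were called higher and 3.05% lower, the shares to set beside the counts of each list. Context lists held 177 genes, some in several lists, of which 156 were measured.

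The 10 genes, the lists and the alternatives were chosen with earlier results of these data known, and the 3 motifs beside the C/EBP-ATF response element were added after the values were seen. Named genes were the 10, FOXK2, relatives of the 10 and, of each list, the called genes (at most 6) or, where fewer than 2 were called, the 2 above the limit with the largest differences in size; other genes named (GCN1, SHMT2, AMT, PAX8, CUBN, VIM, CD68 and transporters) were picked with their values in view. Alternatives tried were median centring, removal of a loess trend (span 0.3), quantile normalization, the brightest cluster per gene, subtraction of the median of 51 neighbouring genes, and other level and fold limits. Calculations ran in Python 3.11.15 with pandas 2.3.3, numpy 2.4.6 and, for loess, statsmodels 0.14.6. The 2-fold calls, the median of neighbouring genes and the quantile normalization were tried on simulated data. The differences planted there were well past 2-fold, so smaller ones were not tried, and the other steps were not tried on simulated data.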

Additional observations from a re-analysis of the deposited data

How the results depend on the processing

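No paired analysis was possible because each group has 1 array. The count of 0 of the 10 genes at least 2-fold lower became 1 (PSAT1) after median centring and 2 at a 1.5-fold limit, and the count of 0 higher became 1 at a 1.5-fold limit. The other alternatives run (7 for lower, 8 for higher) left these counts at 0. Some of these could not have raised them. Each of the 10 has 1 transcript cluster, so the brightest cluster repeats the deposited values. The 3-fold limit and the level limit 1 unit higher can only lower a count. The median of the 10 stayed between -0.16 and -0.045. Over 5 ways of processing, ATF4, DDIT3, PSAT1, PHGDH, SESN2, DDIT4 and VLDLR kept their sign, while TRIB3, ASNS and CHAC1, which lay near 0, each changed sign once. EIF2AK4 fell short of 2-fold after loess removal (-0.96), quantile normalization (-0.94) and subtraction of the neighbours' median, and OAT after median centring (0.95). Conversely, 2-fold was passed by IMPACT after median centring (-1.05), by SHMT1 after loess removal (1.03) and quantile normalization (1.05), and by ANPEP with the neighbours' median subtracted (1.18). Among all genes, 1197 were lower and 686 higher at 1.5-fold, and 83 and 98 at 3-fold, against 344 and 240 at 2-fold. Medians moved with the level filter, as fewer genes entered. Over members above the level limit, and with that limit 1 unit higher, they were -0.11 and -0.24 for the partners of ATF4 and CHOP, -0.40 and -0.45 for the other targets, -0.35 and -0.32 for the one-carbon enzymes and -0.20 and -0.28 for the other amino acid synthesis enzymes. The last was 0.096 with the neighbours' median subtracted, and the glutathione list stood at -0.17 over members above the limit. For these the cause was not tested.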
